A study of Oryza sativa Japonica Group with 12 samples.

Results

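*OsPSK1* (LOC4341588, with the synonyms PSK1 and PSK) encodes a precursor of the peptide hormone phytosulfokine in rice. It is 1 of the 24160 genes that a probe set of the array measured alone, and its single probe set is described here over 12 arrays. It was chosen for its values on these arrays, much higher in early crown root (CR) primordia than in cortex and lower in later stages. Its levels, changes and ranks are therefore given as a description, with no test. RNA came from wild-type plants of *Oryza sativa* ssp. Japonica, cultivar Taichung 65, fixed 8 days after sowing, with no treatment and no mutant. Tissue was cut by laser from sections of the stem base and falls into 4 groups of 3 arrays: early, intermediate and late CR primordia, from successive rings of the stem base, and stem cortex of the same sections. Each replicate pooled the tissue of 2 stem bases, 6 in all, so that a primordium array is a mixture of several primordia of a ring. The RNA was amplified from a small amount. Values are on the log2 scale as deposited, after normalization by the authors, so that 1 unit is a doubling of the signal.

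Phytosulfokine is a short secreted peptide. Its precursor is sulfated on tyrosine and cut by proteases, and the released peptide is read by a receptor kinase of the leucine-rich repeat family, which in *Arabidopsis* works with the coreceptor BAK1. It was first found as a factor that lets sparse plant cells divide in culture, and in *Arabidopsis* roots it promotes cell growth and acts on the meristem. A CR primordium builds a new root meristem within the stem, next to tissue of the stem cortex.

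The arrays differed in their bright values. The 98th percentile of all signals lay between 8.66 and 9.06 on the primordium arrays, against 8.46 on cortex replicate 1 and 7.48 and 7.54 on cortex replicates 2 and 3, while the medians of all 12 arrays lay between 2.82 and 2.97. The tissue labels were set against marker genes. The list of dividing cells holds 15 genes, mostly of histone H2B, with B-type cyclins and *OsPCNA*. Of these, 4 rose in early primordia, 2 in intermediate and 0 in late ones, where 2.12%, 3.47% and 1.73% of all genes rose. *OsPCNA*, the sliding clamp of DNA replication, had the lowest adjusted p among them, at 1.44 ± 0.24 for early and 1.32 ± 0.24 for intermediate primordia (log2 change ± SE, adjusted p = 0.0218 and 0.0234 from limma). The other genes that rose were H2B genes, and no B-type cyclin passed in any stage. Of 4 photosynthesis genes, 2 fell in each stage, where 0.985%, 2.26% and 1.31% of all genes did. These were *CAB1R* and *CAB2R*, which encode chlorophyll a/b binding proteins. None of the 3 cellulose synthase genes of xylem walls and of the 2 phloem sucrose transporter genes passed in any stage, with adjusted p of 0.111 or more. Here and below a gene rose or fell if limma gave it an adjusted p under 0.05, over all genes, and the fold change reached 1.5. Such calls rest on few arrays: without early replicate 2 or early replicate 3, 0 genes passed in the early comparison.

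*OsPSK1* was high in early primordia, somewhat lower in intermediate ones, lower again in late ones and lowest in cortex. In early primordia its signal was 7.08, 7.60 and 7.34 in replicates 1, 2 and 3. In intermediate primordia it was 6.53, 6.00 and 7.39, and in late primordia 5.97, 5.66 and 4.04. In cortex it was 3.98, 3.97 and 3.31. All 9 primordium arrays lay above all 3 cortex arrays, as they did for 5.55% of all genes. The early and intermediate arrays overlapped, since intermediate replicate 3 stood above 2 of the early arrays. Intermediate and late arrays did not overlap, but the lowest intermediate and the highest late array were only 0.04 apart before rounding, and the lowest late and the highest cortex array only 0.06. Late replicate 3 was thus nearly at the level of cortex replicates 1 and 2. In a mixture of cells, fewer cells that express a gene and less of its RNA per cell cannot be told apart.

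**Figure D1:**
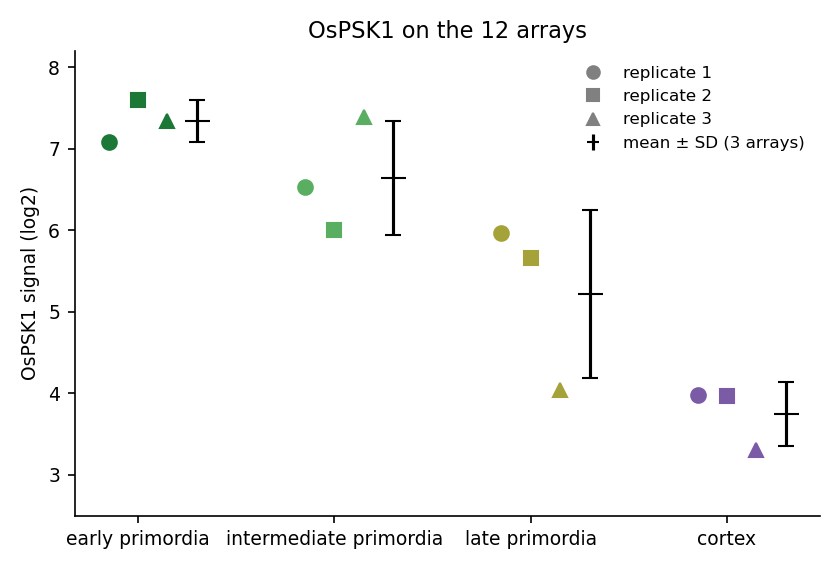
OsPSK1 signal (log2, vertical axis) on each of the 12 arrays by group; symbols mark the replicate and the bars the mean ± SD of 3 arrays. Early arrays lie between 7.08 and 7.60 and cortex arrays between 3.31 and 3.98, while the late arrays spread from 4.04 to 5.97.

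The means were 7.34 ± 0.26 for early primordia, 6.64 ± 0.70 for intermediate, 5.22 ± 1.03 for late ones and 3.75 ± 0.39 for cortex (log2 signal, SD, n = 3 each). The spread was thus unequal. Early primordia and cortex were about as even as other genes, since the median SD of probe sets with a mean within 0.5 of that of *OsPSK1* was 0.22 and 0.29. In late primordia that median was 0.26, and 99.0% of the 1320 probe sets of like mean had a smaller SD than *OsPSK1*. In intermediate primordia the median was 0.28, and 95.5% of 533 had a smaller one. The difference between the means of early and intermediate primordia, 0.70, was of the same size as the SD within the intermediate stage.

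Against cortex, the log2 change of *OsPSK1* was 3.59 for early primordia, 2.89 for intermediate ones and 1.47 for late ones (SE 0.51 each). These are 12-fold, 7.39-fold and 2.77-fold. The contrast can also be read within each pair of stem bases, which gave primordia and cortex from the same sections. Early primordia were higher than the cortex of the same replicate by 3.10, 3.63 and 4.03 in replicates 1, 2 and 3. Intermediate primordia were higher by 2.55, 2.03 and 4.08, and late ones by 1.99, 1.69 and 0.73. All 9 of these differences were positive. Replicate 3 held the greatest difference in the early and in the intermediate stage and the smallest in the late one.

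**Figure D2:**
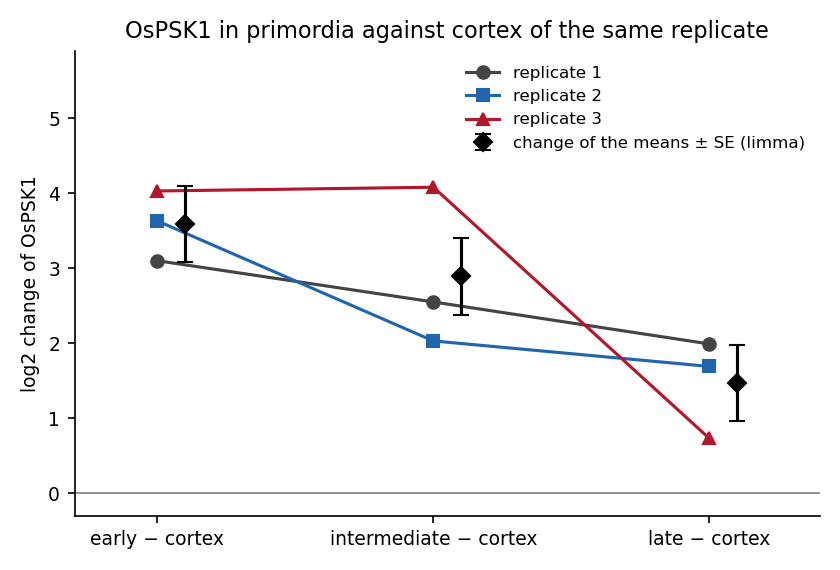
Log2 change of OsPSK1 from cortex in each stage (vertical axis), as lines for the 3 replicates, each against its own cortex array, and as diamonds for the change of the means ± SE from limma. Replicates 1 and 2 end at 1.99 and 1.69 in the late stage and replicate 3 at 0.73, after 4.08 in the intermediate stage.

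Between stages, intermediate minus early primordia differed by -0.70, late minus intermediate by -1.42 and late minus early by -2.12 on the log2 scale (SE 0.51 each). Late primordia were below early ones in all 3 replicates, by -1.11, -1.94 and -3.30 in replicates 1, 2 and 3. Late minus intermediate was -0.56, -0.35 and -3.35, so most of the lower mean of the late stage was in replicate 3. Intermediate minus early was -0.55, -1.59 and 0.05, with no common direction. Leaving out late replicate 3 gave -1.48 for late minus early and -0.78 for late minus intermediate, and leaving out intermediate replicate 3 gave -0.77 for the second. All late arrays lay below all early arrays for *OsPSK1*, as they did for 7.50% of all genes, and below all intermediate arrays, as for 4.49%. No gene of the array passed the adjusted threshold between any 2 stages in limma (0 of 24160 in each of the 3 comparisons). An unadjusted p under 0.05 was found for 753 probe sets in intermediate against early, 606 in late against intermediate and 1509 in late against early. Where no gene differs, a share of 0.05 of the 24161 probe sets of single genes is expected to pass such a threshold. The counts of 753 and 606 lie below that share, and 1509 lies above it. These counts alone do not establish a difference between stages.

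Ranked by log2 change from cortex among 24161 probe sets of single genes, *OsPSK1* was 4th from the top for early primordia, 21st for intermediate and 310th for late ones. Just above it in the early stage were LOC4326909, LOC4352303 and LOC4348377 with 3.76, 3.68 and 3.66, and just below it LOC9271482 and LOC9266486 with 3.56 and 3.52. The neighbours in rank are thus closer to it than 1 SE. In the late stage the genes ranked 308 to 312 lay between 1.47 and 1.46, and the top gene, LOC4332245, was at 3.94. Ranked by late minus early, *OsPSK1* was 7th from the bottom, between LOC4325762 at -2.16 and LOC4348377 at -2.04, and the lowest was LOC9271482 at -3.13. Within each pair of stem bases the rank for early primordia was 6, 58 and 8 in replicates 1, 2 and 3. Intermediate primordia gave ranks of 19, 430 and 7 and late ones 45, 573 and 1821.

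These ranks moved with single arrays, for early primordia although the change of *OsPSK1* itself hardly did. Without cortex replicate 1 it was higher by 3.64 in early primordia and ranked 15, and without cortex replicate 2 it was higher by 3.69 and ranked 1. In the intermediate stage it was higher by 2.24 and ranked 92 without intermediate replicate 3, and higher by 3.36 and ranked 5 without intermediate replicate 2. In the late stage it was higher by 2.11 and ranked 98 without late replicate 3. It was higher by 1.07 there without late replicate 1, and ranked 715.

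Late replicate 3 minus the mean of late replicates 1 and 2 was -1.77 for *OsPSK1*, the 15th lowest such difference of 24161. The whole marker lists stand beside it. Of the 15 dividing cell markers, 13 were lowest on late replicate 3 among the late arrays, with a median difference of -0.43. The mean log2 signal of these markers was 5.89, 5.61 and 5.24 in late replicates 1, 2 and 3. Of the 7 root meristem markers, 4 were lowest there, with a median of -0.28. None of the 4 photosynthesis markers was, with a median of 0.11, and over all probe sets of single genes 42.7% were lowest on that array, with a median of -0.06. The part of these differences in the value of *OsPSK1* was not tested.

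Intermediate replicate 2, the lowest intermediate array for *OsPSK1*, also had the lowest means of its group for the root meristem and dividing cell markers. The root meristem markers averaged 4.88, 4.27 and 4.79 in intermediate replicates 1, 2 and 3, and the dividing cell markers 6.02, 5.67 and 5.77. The photosynthesis markers averaged 2.29, 2.51 and 2.46. Only *CAB1R*, at 2.68, 3.48 and 2.96, was highest on replicate 2, and the other members of that list were highest on replicate 3. The part of these marker differences in the value of *OsPSK1* was not tested. In early primordia the root meristem markers averaged 4.96, 4.94 and 4.86, in late ones 4.47, 4.13 and 4.00, and in cortex 3.97, 3.37 and 3.39. Late replicate 3 and cortex replicate 1 were thus close in the root meristem mean, at 4.00 and 3.97, and also in *OsPSK1*, at 4.04 and 3.98. Cortex replicate 2 had a root meristem mean of 3.37 and an *OsPSK1* signal of 3.97. The dividing cell markers averaged 5.07, 5.11 and 5.45 in cortex, which put cortex replicate 3, the array with the lowest *OsPSK1* signal, above late replicate 3. The root meristem list holds the PLETHORA genes, which were chosen on these arrays. Of its other 3 members, the study also names *OsSCR1* and *OsSHR1* from these arrays, so the list is a description. *QHB*, *OsSCR1* and *OsSHR1* are a homeobox gene of the quiescent centre and 2 genes of the pathway that patterns root ground tissue. The log2 change of *OsSCR1* from cortex was 1.58, 0.38 and 0.39 from early to late (SE 0.17 from limma). That of *OsSHR1* was 1.32, 0.71 and 0.02 (SE 0.34), and that of *QHB* 0.36, 0.04 and -0.44 (SE 0.2).

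**Figure D3:**
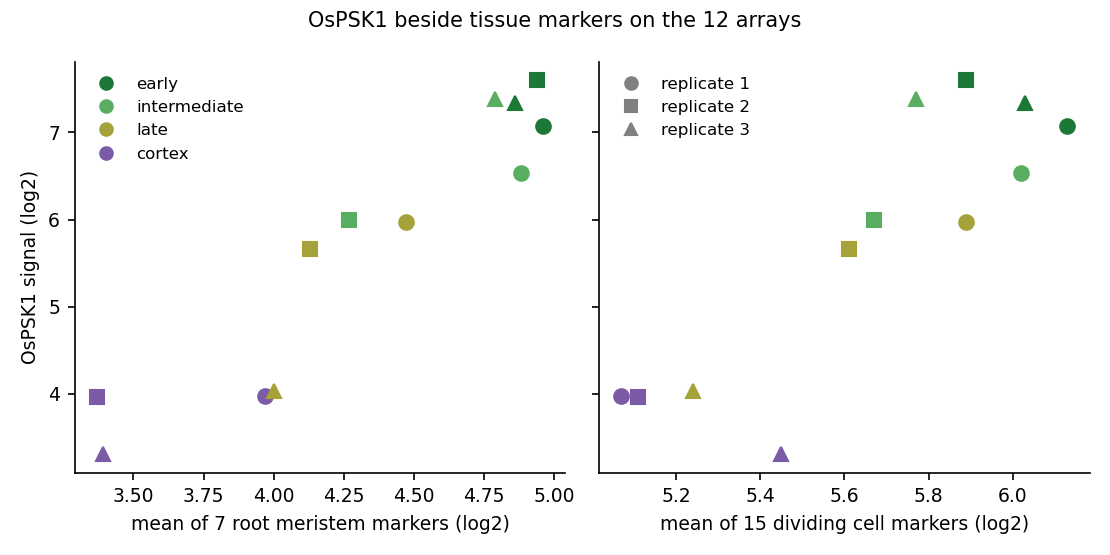
OsPSK1 signal (log2, vertical axis) against the mean log2 signal of 7 root meristem markers (left) and of 15 dividing cell markers (right), a point per array, with colour for the group and symbol for the replicate. Late replicate 3 lies at 4.04 for OsPSK1 and holds the lowest marker means of the primordium arrays, 4.00 and 5.24.

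The reference gene table names 3 more precursor genes, *PSK2* (LOC4349781), *PSK4* (LOC4342304) and *PSK5* (LOC4351500), and all were measured. *PSK2* had a signal of 2.42, 2.5 and 2.54 in early, 2.43, 2.49 and 2.73 in intermediate and 2.33, 2.65 and 2.71 in late CR primordia, against 2.27, 2.11 and 2.45 in cortex. *PSK4* stayed between 2.53 and 2.88 on all 12 arrays. *PSK5* ranged from 2.70 to 3.08 in early, 2.51 to 2.72 in intermediate and 2.45 to 3.32 in late CR primordia, against 2.41 to 2.73 in cortex. Every stage of each of the 3 genes overlapped with cortex, except that the early *PSK4* arrays all lay above cortex, at 2.71 or more against 2.65 or less, as they did for 12.4% of all genes. No detection call was used, so whether these low signals exceed background is not known here.

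Their log2 changes from cortex were small. *PSK2* was at 0.21, 0.27 and 0.29, by stage from early to late (SE 0.12), *PSK4* at 0.14, 0.03 and 0.07 (SE 0.13) and *PSK5* at 0.37, 0.06 and 0.18 (SE 0.23). *OsBAK1* (LOC4344785), the rice gene named after the coreceptor kinase, was at 0.42, 0.35 and 0.02 (SE 0.23). *OsSERL2* (LOC4340743), named for likeness to the same kinase family, was at -0.02, -0.19 and 0.03 (SE 0.13). *OsCLE202* (LOC4329179), of the CLE family of secreted signalling peptides, was at 0.49, 0.55 and 0.53 (SE 0.31). Of these 6 genes 0 passed the test in limma in any stage, where 3.10%, 5.73% and 3.04% of all genes passed from early to late, with adjusted p between 0.183 and 0.965. At an unadjusted p under 0.05 stood 0, 0 and 1 of them, the last being *PSK2*. Of all 24161 probe sets of single genes, 4963, 6644 and 5717 did so. Their median log2 change was 0.29, 0.17 and 0.12, where that of all probe sets was -0.03, -0.03 and -0.02. Between stages 0 of 6 passed as well, with adjusted p of 0.889 or more and 0 at an unadjusted p under 0.05. A p above the threshold does not show that these genes were level. Receptors of phytosulfokine, the tyrosylprotein sulfotransferase and the proteases that cut the precursor were not matched by name and are not analysed here.

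**Figure D4:**
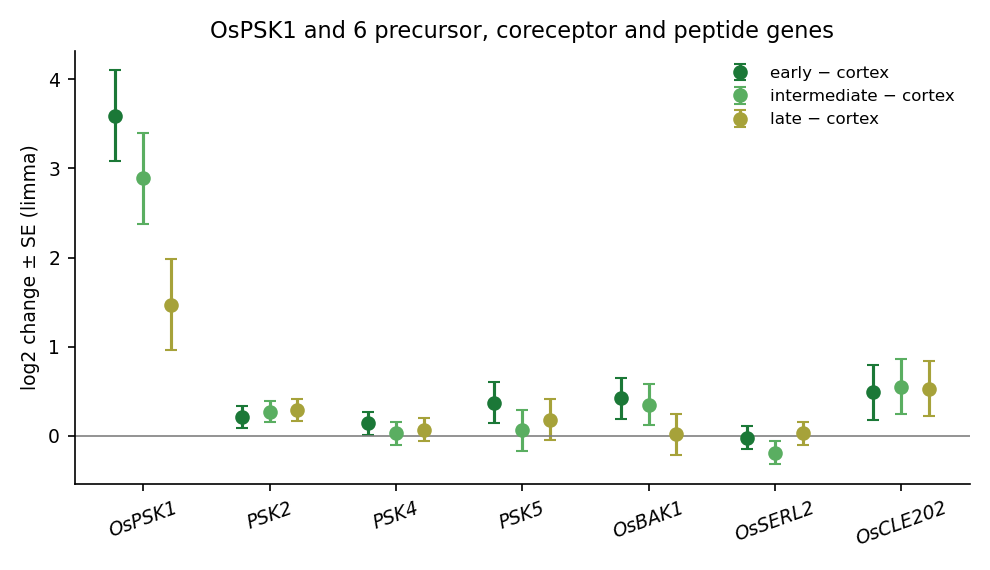
Log2 change from cortex ± SE from limma (vertical axis) of OsPSK1 and of 6 other genes of phytosulfokine precursors, coreceptor kinases and secreted peptides, in early, intermediate and late primordia. OsPSK1 is at 3.59, 2.89 and 1.47, and the other genes lie between -0.19 and 0.55.

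*OsPLT3* (LOC4329975) encodes a PLETHORA transcription factor. In *Arabidopsis*, PLETHORA factors maintain the stem cells of the root meristem. It was named by the study beside *OsPSK1* and, like it, was chosen on these arrays. Its signal was 6.8, 7.0 and 7.22 in early, 6.94, 6.37 and 7.0 in intermediate and 6.21, 6.07 and 5.84 in late CR primordia, against 5.76, 3.90 and 2.73 in cortex. It was higher than cortex by 2.88, 2.64 and 1.91 (log2 change, SE 0.56), which ranked 22, 38 and 115. Its late arrays were close to each other, unlike those of *OsPSK1*, and its cortex arrays were far apart. Within replicates 1, 2 and 3 the early stage was higher by 1.04, 3.11 and 4.50 for *OsPLT3*, against 3.10, 3.63 and 4.03 for *OsPSK1*. The late stage was higher by 0.44, 2.17 and 3.11 for *OsPLT3*, against 1.99, 1.69 and 0.73 for *OsPSK1*. The lower level in late than in early primordia was -0.97 for *OsPLT3* and -2.12 for *OsPSK1*.

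Likeness to *OsPSK1* was measured over all genes as the root mean square difference of log2 signals over the 12 arrays, after each probe set was centred on its mean. The median over all genes was 1.5. A gene level on all 12 arrays would be at 1.48, so the median is about that of a gene that does not change. The most alike were LOC4352303 at 0.609, LOC4344718 at 0.609, LOC4327694 at 0.668 and LOC4348377 at 0.684. LOC4327806, LOC4334846, LOC9272152, LOC4334190, LOC4334157 and LOC4340679 followed between 0.728 and 0.745, and the 11th gene was at 0.749, so that the limit at 10 genes does not mark a step. *OsPLT3* was 16th, at 0.772, and *OsPLT5*, *OsPLT6* and *OsPLT1* were at ranks 193, 250 and 636. The measure compares profiles over arrays that share stages, stem bases and normalization.

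By the annotation published with the study, LOC4352303 and LOC4334190 hold a SWIB domain, known from chromatin remodelling complexes, and LOC4327694 resembles the zinc finger factor Magpie of *Arabidopsis*, a partner of SHORT-ROOT and SCARECROW in root patterning. LOC4348377 is like glycosyl hydrolases of family 17, enzymes that cut callose, and LOC4334157 like a callose-binding protein of plasmodesmata, the channels between plant cells. LOC4327806 holds a Barren domain, that of a condensin subunit which compacts chromosomes for mitosis, and LOC4334846 is a putative receptor kinase. LOC4340679 carries the synonym *OsGLU13*, and LOC4344718 and LOC9272152 have no description here. These functions were not used by the measure.

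The 10 genes were picked for a small difference from *OsPSK1* over these same arrays, which largely fixes the direction of their changes, so their values are a description. Their log2 change from cortex in the early stage lay between 2.31 and 3.68, and late minus early between -2.04 and -0.42, against -2.12 for *OsPSK1*. The nearest in late minus early was LOC4348377, with a mean signal of 6.77 ± 0.25 in early, 6.04 ± 0.91 in intermediate and 4.73 ± 1.57 in late CR primordia and 3.12 ± 1.00 in cortex (log2, SD, n = 3 each). LOC4352303 stayed high longer, at 8.33 ± 0.16, 8.25 ± 0.29 and 7.17 ± 0.96 in the 3 stages and 4.64 ± 0.83 in cortex. The low late replicate 3 of *OsPSK1* also entered the choice. For all 10, late replicate 3 minus the mean of late replicates 1 and 2 was negative, from -2.62 to -0.45, and it was -0.29 for *OsPLT3*.

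**Figure D5:**
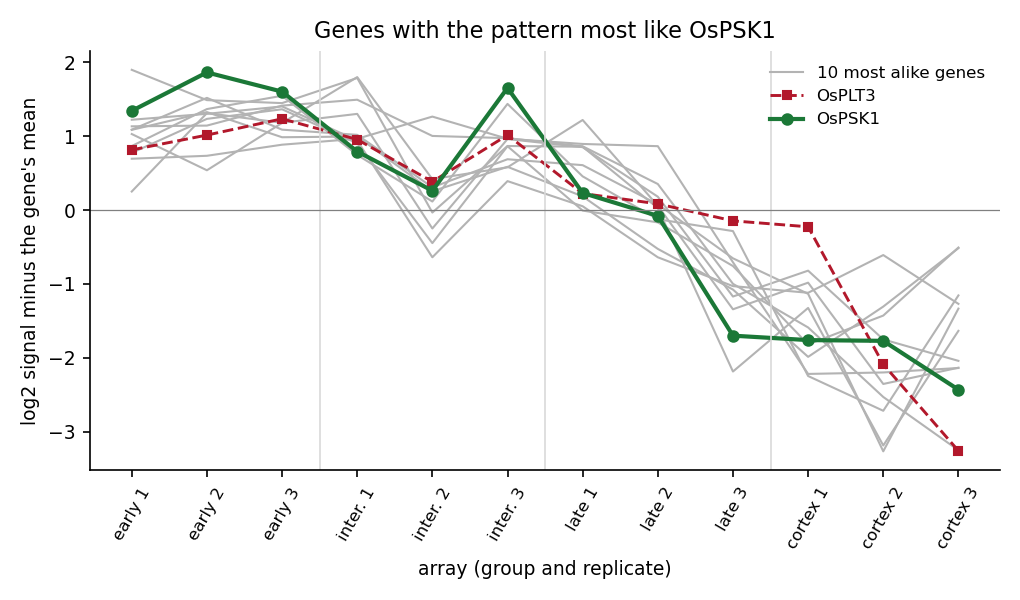
Log2 signal minus the gene's own mean (vertical axis) on the 12 arrays (horizontal axis, by group and replicate) for OsPSK1, the 10 most alike genes and OsPLT3; lines join the values of a gene and imply no order of replicates. OsPSK1 lies low on late replicate 3, next to cortex, and OsPLT3 lies high on cortex replicate 1.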

How the data were processed

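RNA of 12 laser-microdissected samples was hybridized to Rice (Jp) Gene 1.1 ST arrays. The deposited log2 signals, 1 for each probe set on each array, had been corrected for background, normalized and summarized by the authors. The article names Robust Multi-array Average for this step and the submitters' processing notes name GCRMA and Affymetrix Expression Console, and it is unknown which was used. Both methods adjust arrays against each other, but the upper ends of the deposited distributions still differ between arrays. No scan was used here. Of 36643 probe sets, 24161 carry 1 gene, 90 several and 12392 none in the array's annotation. Symbols came from the RefSeq gene table of assembly ASM3414082v1, used for names and for neighbouring genes. No coordinates or sequences are given.

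Group means with the replicate number as a block were fitted over all 12 arrays (limma 3.58.1, R 4.3.3, eBayes), since the record states that the 4 tissues of a repetition came from the same 2 stem bases. Deviations of same-numbered arrays correlated above 0.1 in 7 of 18 pairs (range -0.315 to 0.355, mean 0.051). Arrays of different groups and different numbers had a mean correlation of -0.026, so the shared deviation was small. P-values were Benjamini-Hochberg adjusted over the probe sets of single genes. The fit was tested on simulated data. The precision is limited by 3 arrays a group.

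Gene lists (precursors, coreceptors, secreted peptides, PLETHORA genes and tissue markers) were matched by symbol or synonym, and PLETHORA genes through the study's tables. The members and lists were chosen with earlier results of these data known. Named are *OsPSK1*, *OsPLT3*, the precursor genes, the 10 genes most alike, up to 3 genes of each other list, and genes next in rank or on the chromosome, which were chosen after their values were seen. Alternatives were another scaling, filters, priors, array weights, no block, the thresholds of the methods (p under 0.01, fold change 1.5), fewer arrays and other measures of likeness.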

Additional observations from a re-analysis of the deposited data

How the results depend on the processing

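*OsPSK1* kept the sign of every change from cortex and of every stage difference under all scalings, without the replicate block (3.59, 2.89 and 1.47 from early to late), with array weights and with medians. With single arrays or replicates left out, its change lay between 3.36 and 3.86 for early primordia, 2.24 and 3.36 for intermediate and 1.07 and 2.11 for late ones. Intermediate minus early lay between -1.34 (without intermediate replicate 3) and -0.23 (without intermediate replicate 2), late minus intermediate between -1.95 and -0.45 (without replicate 3), and late minus early between -2.62 and -1.48. Its rank lay between 1 and 15, 3 and 92, and 98 and 786. The rank moved by over 1.5 times without any 1 of the cortex arrays (in the late stage not without cortex replicate 3), without early replicate 1, without intermediate replicate 2 or 3 and without any 1 of the late arrays, each in its own stage. After quantile normalization again it was 193 for late primordia, and with cortex replicate 1 alone 11 for intermediate and 110 for late ones.

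The count of precursor, coreceptor and secreted peptide genes that passed was 0 in every stage and alternative (lowest and highest 0 with arrays left out). These tested 6 genes, except the filter on dim probe sets, which left *OsBAK1* and *OsCLE202*. The count over all genes, 749, 1384 and 734 from early to late, was not stable. Without the replicate block it was 641, 1382 and 785. It was 71, 69 and 42 with cortex replicate 1 alone, 398, 865 and 322 with an intensity trend, 0, 0 and 0 with only the 6 arrays compared, and 1756, 2373 and 1916 at the thresholds of the methods. Quantile normalization again gave 798 for intermediate and 455 for late primordia, and array weights 1305 for early ones. With arrays left out it ranged from 0 to 1840, 0 to 3076 and 1 to 2515, the highest each without cortex replicate 1. The cause was not tested. Of the 10 genes most alike, 0 were shared with the 10 by Pearson correlation over the 9 primordium arrays, 4 with those by the 4 group means and 5 with those after quantile normalization again.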

Other observations

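Genes next to *OsPSK1* on its chromosome were looked at after the values had been seen, the 5 nearest measured genes on each side in the reference gene table. The model of none of them overlaps that of *OsPSK1*. Of the 10 genes, 0 rose and 1 fell in early primordia, 1 rose and 1 fell in intermediate ones and 0 changed in late ones at the adjusted p from limma, where 3.10%, 5.73% and 3.04% of all genes did in either direction.

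The gene that rose was LOC4341589, the next measured gene on the side of higher coordinates. Its signal was 5.72, 7.0 and 5.89 in early, 6.56, 6.33 and 5.44 in intermediate and 5.68, 5.97 and 5.10 in late primordia, against 4.92, 3.78 and 4.53 in cortex. All 9 primordium arrays lay above the cortex arrays, as they did for 5.55% of all genes. Its log2 change was 1.79, 1.70 and 1.17 in the 3 stages (SE 0.41, adjusted p = 0.0542, 0.047 and 0.137 from limma). The call in the intermediate stage was lost in 16 of 25 alternatives (adjusted p from 0.0279 to 0.344 over all of them), among them without any 1 of the intermediate or late arrays, without cortex replicate 2 or 3 and without early replicate 3. The gene that fell was LOC4341591, by 0.74 in the early and 0.75 in the intermediate stage on the log2 scale (SE 0.13, adjusted p = 0.0267 and 0.0225). These calls were lost in 11 and 12 of 25 alternatives (adjusted p from 0.00915 to 0.333 and from 0.00785 to 0.226), in both stages without cortex replicate 2 or 3, in the early stage also without early replicate 2 or 3 and in the intermediate stage without any 1 of the intermediate arrays.

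LOC4341593, whose model lies within that of LOC4341594, had the largest mean change from cortex of all genes in the intermediate stage, 4.17, and did not pass the test (SE 1.12, adjusted p = 0.0616 from limma). Its signal was 7.38, 8.54 and 8.51 in early, 9.24, 8.52 and 8.72 in intermediate and 8.63, 8.27 and 8.71 in late primordia, against 8.21, 2.94 and 2.83 in cortex. Cortex replicate 1 thus stood with the primordia. With all arrays the gene did not pass in the early or late stage either (adjusted p = 0.128 and 0.0908 from limma). It passed in 3, 6 and 4 of 25 alternatives, by stage from early to late. Among these was the fit without cortex replicate 1 in each stage, and that without early replicate 1 in the intermediate stage. Without cortex replicate 1 the log2 change was 5.30, 5.99 and 5.70, by stage from early to late. That array was singled out for the value of this gene on it, so no p is given for this setting. *OsPSK1* showed no such split, at 3.98, 3.97 and 3.31 in cortex.

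By Pearson correlation over the 9 primordium arrays other genes came first, LOC9266831 and LOC9271297 with r = 0.98 and LOC4343629 with r = 0.97. These are descriptions, and the arrays share stages and stem bases. Their log2 changes from cortex in early primordia were unlike each other, at 0.03 for LOC9266831, 1.58 for LOC9271297 and 0.25 for LOC4343629, against 3.59 for *OsPSK1*.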
